A study of Mus musculus with 6 samples.

Results

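The T-box genes encode transcription factors that share a DNA-binding region, the T-box. The 8 of them described here are Tbx1, Tbx2, Tbx3, Tbx4, Tbx5, Tbx18, Tbx20 and Tbx21, out of 55573 genes in the deposited mouse lung tables. They were chosen by name with results of the same comparison known, Tbx1 being among the genes called in it, so their values are a description and support nothing beyond themselves. All 8 passed the low-count filter. The tables hold 17 T-box genes in all, and the other 9 are given after the 8.

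The libraries came from total lung RNA of wild-type C57BL/6 mice aged 9-10 weeks. Mice of the SS-31H_CS group (3 libraries) breathed cigarette smoke and received SS-31, a peptide that binds cardiolipin in the inner mitochondrial membrane, at 5 mg/kg once daily. Mice of the CS group (3 libraries) breathed cigarette smoke for 75 min at a time, 2 times daily, on 5 days of the week over 4 weeks. All 6 libraries are therefore from smoke-exposed lungs, and lungs without smoke were not analysed here. The schedule of smoke is stated for CS mice alone and no vehicle is named. The labels do not say whether the 3 libraries of a group came from separate mice, so the p-values measure the spread between these libraries.

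T-box factors work in pairs of related genes in the developing lung. Tbx4 and Tbx5 act in lung mesenchyme, where they promote bud outgrowth through Fgf10 and Wnt signals. Tbx2 and Tbx3 act there as repressors that keep mesenchymal cells dividing. Tbx1 is best known from the pharyngeal arches and from DiGeorge syndrome in people, Tbx18 from the epicardium and mural cells, Tbx20 from heart muscle, and Tbx21 (T-bet) from type 1 helper T cells and natural killer (NK) cells.

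The 6 libraries held 15611925 to 17360052 counts assigned to genes, at which 3 counts equal 0.172 to 0.185 CPM (counts scaled to a fixed library size). In edgeR's quasi-likelihood test, 26 of the 16965 genes that passed the filter had a Benjamini-Hochberg adjusted p below 0.05, which is 0.153% of them. Of these, 12 were higher and 14 lower in SS-31H_CS lungs. The median log2 fold change of all genes tested was 0.011, and 8712 of the 16965 had a positive one. On the leading principal component (46.4% of the variance) SS-31H_CS replicate 3 lay at 44.8 and CS replicate 3 at -61.3, the ends of the axis. CS replicate 3 was also low in B cell markers (167 CPM summed, against 448 to 684 CPM in the other 5 libraries) and in erythroid markers (193 CPM, against 725 to 952 CPM). The 10 alveolar type 2 cell markers all passed the filter, with summed levels of 18400 to 24400 CPM in SS-31H_CS lungs and 20600 to 22900 CPM in CS lungs.

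Of the 8 T-box genes, Tbx1 was called, with a level in SS-31H_CS lungs 2.23-fold that in CS lungs. The other 7 were not called, with adjusted p from 0.137 to 0.939. The lung mesenchyme genes Tbx3, Tbx4 and Tbx5 had negative log2 fold changes and Tbx2 a small positive one. Tbx18, Tbx20 and Tbx21 had log2 fold changes smaller than their SE. The share called among all genes was 0.153%, and since the genes were chosen on this comparison, nothing is read from their count.

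**Figure D1:**
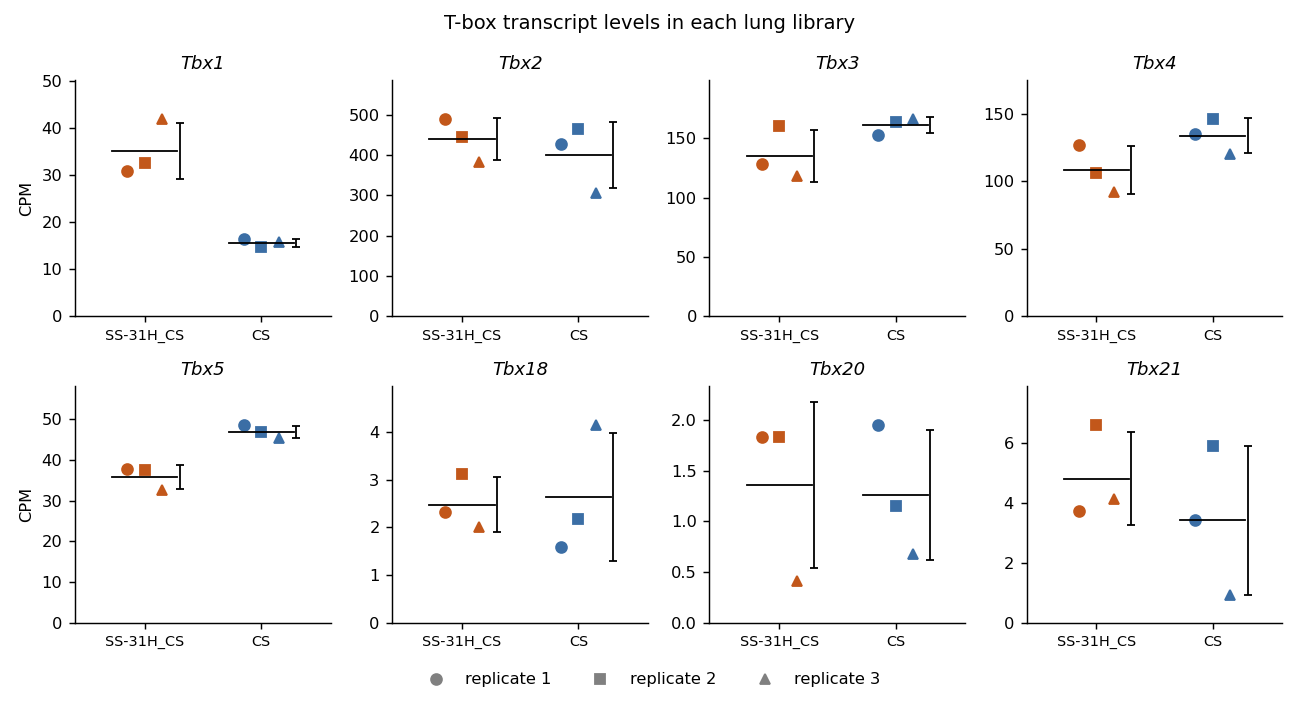
Level of each of the 8 T-box genes in CPM, 1 point per library, with SS-31H_CS on the left and CS on the right of each panel. The horizontal line is the group mean and the bar beside it the SD (n = 3). The groups are apart for Tbx1 (30.9 to 41.9 against 14.8 to 16.5 CPM) and Tbx5 (32.5 to 37.7 against 45.4 to 48.5 CPM) and overlap in the other 6 panels.

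Per length, Tbx2 was the most abundant of the 8 in both groups. In deposited FPKM, Tbx2 averaged 123 ± 15.3 in SS-31H_CS lungs and 108 ± 25.2 in CS lungs (SD, n = 3 each). Tbx4 followed at 32.4 ± 5.10 FPKM in SS-31H_CS lungs and 38.5 ± 4.76 FPKM in CS lungs, and then Tbx3 at 20.9 ± 3.94 FPKM in SS-31H_CS lungs and 23.8 ± 1.05 FPKM in CS lungs. Tbx1 and Tbx5 held the next places, in opposite order in the groups. In SS-31H_CS lungs Tbx1 stood above Tbx5, at 10.1 ± 1.62 against 7.82 ± 0.747 FPKM. In CS lungs Tbx5 stood above Tbx1, at 9.84 ± 0.534 against 4.37 ± 0.222 FPKM. Tbx21, Tbx18 and Tbx20 closed the order in both groups, and Tbx20 averaged 0.113 ± 0.0723 FPKM in SS-31H_CS lungs and 0.103 ± 0.0551 FPKM in CS lungs. Neighbours in the order did not overlap over the 3 libraries of a group, except Tbx21 and Tbx18 in CS lungs, where Tbx21 ran from 0.35 to 2.38 FPKM and Tbx18 from 0.33 to 0.83 FPKM.

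**Figure D2:**
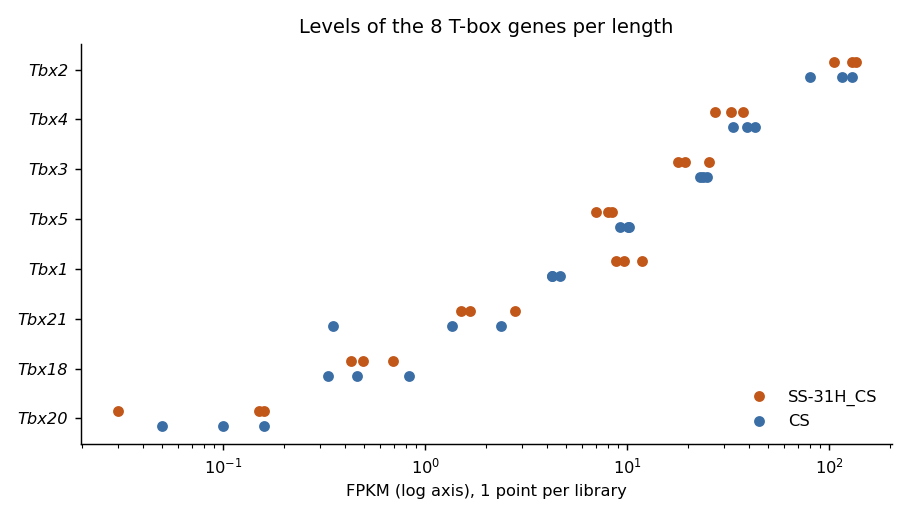
FPKM of the 8 T-box genes on a log axis, 1 point per library, with SS-31H_CS above CS for each gene. Tbx2 lies between 80.4 and 135 FPKM and Tbx20 between 0.03 and 0.16 FPKM. The Tbx1 and Tbx5 points of the 2 groups lie in opposite order.

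Tbx2 made up 61.7% to 64.1% of the summed FPKM of the 8 genes in SS-31H_CS libraries and 52.7% to 60.2% in CS libraries. Tbx1 made up 4.18%, 4.63% and 6.94% in SS-31H_CS libraries 1 to 3, and 2.38%, 1.98% and 2.79% in CS libraries 1 to 3. The sum itself overlapped between the groups, at 172 to 211 FPKM in SS-31H_CS libraries and 152 to 214 FPKM in CS libraries.

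Tbx1 (ENSMUSG00000009097) lies on the minus strand of chromosome 16, from 18580979 to 18590671 in GRCm38, with 3517 exon bases in 8 blocks. It had 523, 531 and 712 counts in the 3 SS-31H_CS libraries, against 280, 259 and 255 counts in the 3 CS libraries. Scaled for depth these were 30.9, 32.5 and 41.9 CPM in SS-31H_CS lungs, against 16.5, 14.8 and 15.7 CPM in CS lungs. All 3 SS-31H_CS libraries stood above all 3 CS libraries, and the groups did not overlap, in either direction, for 26.1% of all genes tested and for 2 of the 8 T-box genes, Tbx1 and Tbx5. SS-31H_CS replicate 3 was the highest, and the CS libraries lay close together. The log2 fold change was 1.16 (SE 0.15), or 2.23-fold, with an edgeR adjusted p of 0.0467. This is the result by which the family was chosen. Tbx1 ranked 13 by p among the genes tested, and 3.44% of them had a larger absolute log2 fold change.

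The call of Tbx1 sat close to the threshold and was lost when any 1 library was left out, with adjusted p from 0.0758 to 0.167 and log2 fold changes from 1.01 to 1.24. It was also lost in the limma fits, on counts (voom, adjusted p 0.0605) and on FPKM (0.0725 and 0.0822). In bulk lung RNA, more cells that express a gene and more RNA per cell cannot be told apart, and this applies to every level given here.

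RefSeq annotates a pair of starts for Tbx1, and the 300 bases around each (250 before to 50 after the start, GRCm38.p6) are printed because Tbx1 is the gene on which the family was chosen. The first, at the outer end of the gene, covers chr16:18590622-18590921 and the second, inside the gene, covers chr16:18588850-18589149, both on the minus strand. Both are written 5′ to 3′ in the direction of transcription, with each CG dinucleotide in capitals.
Tbx1 outer start: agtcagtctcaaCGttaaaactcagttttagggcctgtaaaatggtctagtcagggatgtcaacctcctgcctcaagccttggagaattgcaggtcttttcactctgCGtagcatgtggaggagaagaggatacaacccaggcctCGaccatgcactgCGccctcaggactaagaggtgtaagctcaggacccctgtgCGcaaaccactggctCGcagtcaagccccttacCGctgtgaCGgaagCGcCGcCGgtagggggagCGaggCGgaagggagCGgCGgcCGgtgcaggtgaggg
Tbx1 inner start: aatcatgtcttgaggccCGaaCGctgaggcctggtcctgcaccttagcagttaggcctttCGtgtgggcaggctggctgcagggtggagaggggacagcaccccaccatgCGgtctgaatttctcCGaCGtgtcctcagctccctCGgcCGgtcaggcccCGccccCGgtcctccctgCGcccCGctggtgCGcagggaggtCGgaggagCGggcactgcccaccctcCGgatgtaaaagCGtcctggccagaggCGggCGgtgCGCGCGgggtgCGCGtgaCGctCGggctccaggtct
The outer start has 16 CG dinucleotides, a GC content of 58.3% and an observed over expected CG ratio of 0.633. The inner start has 26 CG dinucleotides, a GC content of 69.0% and a ratio of 0.729. The medians of the 32851 promoters in the table are 52.7% and 0.384. The T-box binding motif AGGTGTGA was searched on both strands, as was the GGTGTG core within it. Neither was found in these 300 bases or in the 4 other windows matched to a member (5 of the 8 genes had an entry). The motif is present in 1.28% and the core in 19.0% of all promoters in the table.

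The nearest tested genes on either side of Tbx1 were not called. Gnb1l, 14.3 kb away, averaged 4.17 ± 0.162 CPM in SS-31H_CS lungs and 4.48 ± 0.616 CPM in CS lungs (log2 fold change -0.10, adjusted p 0.825). Sept5, 29.8 kb away on the other side, averaged 6.65 ± 0.785 CPM in SS-31H_CS lungs and 5.89 ± 0.555 CPM in CS lungs (log2 fold change 0.17, adjusted p 0.658). Gm49601, at the same distance, averaged 2.24 ± 0.616 CPM in SS-31H_CS lungs and 1.49 ± 0.207 CPM in CS lungs (log2 fold change 0.59, adjusted p 0.357). The annotated neighbour on the opposite strand, 4930588K23Rik at 1321 bases, was near 0 and not tested, with 0 to 8 counts in any library.

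Across the 6 libraries the pattern closest to that of Tbx1 was that of Ccdc151, a gene needed for the dynein arms of motile cilia. The root mean square difference of their log2 CPM, each centred on its own mean, was 0.092 over the 6 libraries, against an SD of 0.588 for Tbx1 itself. Ccdc151 averaged 17.7 ± 2.36 CPM in SS-31H_CS lungs and 7.62 ± 0.413 CPM in CS lungs, with a log2 fold change of 1.22 (SE 0.16) and an edgeR adjusted p of 0.0467. Like that of Tbx1, its call was lost when any 1 library was left out (adjusted p 0.0758 to 0.214) and in the limma fits (0.0605 to 0.0822), and also with library size alone (0.0552). Gm47139 and Vwa1, which encodes a matrix protein, came next at differences of 0.099 and 0.115, and neither was called by edgeR (adjusted p 0.0889 and 0.0882), though both were by DESeq2 (0.00275 and 0.00233) and by edgeR without a low-count filter (0.0242 and 0.0252). The candidates were 15745 genes, and these 3 are the nearest of them by construction.

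Markers of ciliated and club cells had the same sign as Tbx1. All 12 ciliated cell markers had positive log2 fold changes (median 1.08), 10 of them with no overlap between the groups (26.1% of all genes tested did not overlap), and 0 of 12 passed the test. Their summed level was 766, 829 and 1200 CPM in SS-31H_CS libraries 1 to 3, against 585, 565 and 399 CPM in CS libraries 1 to 3. Foxj1, the master regulator of motile cilia, averaged 150 ± 44.8 CPM in SS-31H_CS lungs and 60.5 ± 7.67 CPM in CS lungs (log2 fold change 1.31, adjusted p 0.0728). The 10 club cell markers were also all positive (median 0.79), where 8712 of the 16965 genes tested were positive. Among these markers 1 was called (0.153% of all genes tested were), the secretoglobin Scgb3a2 at a log2 fold change of 1.44 (edgeR adjusted p 0.0467). Their summed level was 29400 to 64400 CPM in SS-31H_CS lungs and 25000 to 30100 CPM in CS lungs, which overlap. Scgb1a1 made up 72.3% to 74.6% of that sum in SS-31H_CS libraries and 72.9% to 76.6% in CS libraries. Without Scgb1a1 the markers summed to 8150 to 16400 CPM in SS-31H_CS lungs and 6040 to 7050 CPM in CS lungs. No marker of either list was at 0 in all libraries. Basal cells of the airway had 6 of 10 markers tested, 5 positive, 1 negative and 0 called (median 0.62). The basal cell sum was 467 to 595 CPM in SS-31H_CS lungs and 588 to 905 CPM in CS lungs, which overlap. Lymphatic endothelium, a known site of Tbx1 expression, had 7 of 10 markers tested, 0 called, and 5 of the 7 negative (median -0.22). Its summed level was 424 to 502 CPM in SS-31H_CS lungs and 576 to 819 CPM in CS lungs. Lyve1 made up 29.6% to 38.9% of that sum in SS-31H_CS libraries and 39.8% to 64.4% in CS libraries. Without Lyve1 the markers summed to 296 to 307 CPM in SS-31H_CS lungs and 292 to 355 CPM in CS lungs, which overlap. Pdpn had 0 deposited counts in all libraries, which is not read as absence of its RNA, and the cause was not tested. Lyve1 averaged 156 ± 35.7 CPM in SS-31H_CS lungs and 339 ± 163 CPM in CS lungs (log2 fold change -1.12, adjusted p 0.149). The 2 positive markers were Sema3d and Prox1. Sema3d averaged 19.4 ± 3.26 CPM in SS-31H_CS lungs and 12.3 ± 2.46 CPM in CS lungs (log2 fold change 0.67, edgeR adjusted p 0.165). Prox1 averaged 1.92 ± 1.01 CPM in SS-31H_CS lungs and 1.25 ± 0.475 CPM in CS lungs (log2 fold change 0.61, edgeR adjusted p 0.532).

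Set against those sums, a ratio added after the values were seen, Tbx1 stood at 40.4, 39.1 and 34.8 CPM per 1000 CPM of ciliated markers in SS-31H_CS libraries and at 28.2, 26.3 and 39.4 in CS libraries. The groups overlap on this ratio. A single gene, Tppp3, made up 45.8% to 54.5% of the ciliated sum in SS-31H_CS libraries and 56.2% to 65.8% in CS libraries. With Tppp3 left out, Tbx1 stood at 88.8, 79.9 and 64.2 CPM per 1000 CPM in SS-31H_CS libraries and at 82.5, 61.9 and 90.0 in CS libraries, again with overlap. Per 1000 CPM of lymphatic markers Tbx1 stood at 72.9, 64.6 and 94.5 CPM in SS-31H_CS libraries and at 28.7, 25.2 and 19.2 CPM in CS libraries, with no overlap. Per 1000 CPM of club cell markers it stood at 0.650 to 1.10 CPM in SS-31H_CS libraries and at 0.550 to 0.628 CPM in CS libraries, also without overlap. Neither of these 2 arrangements changed with the most abundant marker left out (Lyve1 and Scgb1a1). The lymphatic sum without Lyve1 was mostly 1 gene, Stab1, at 188 to 196 of 296 to 307 CPM in SS-31H_CS libraries. In CS libraries Stab1 was at 177 to 215 of 292 to 355 CPM. The part of these cell types in the Tbx1 result was not tested.

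**Figure D3:**
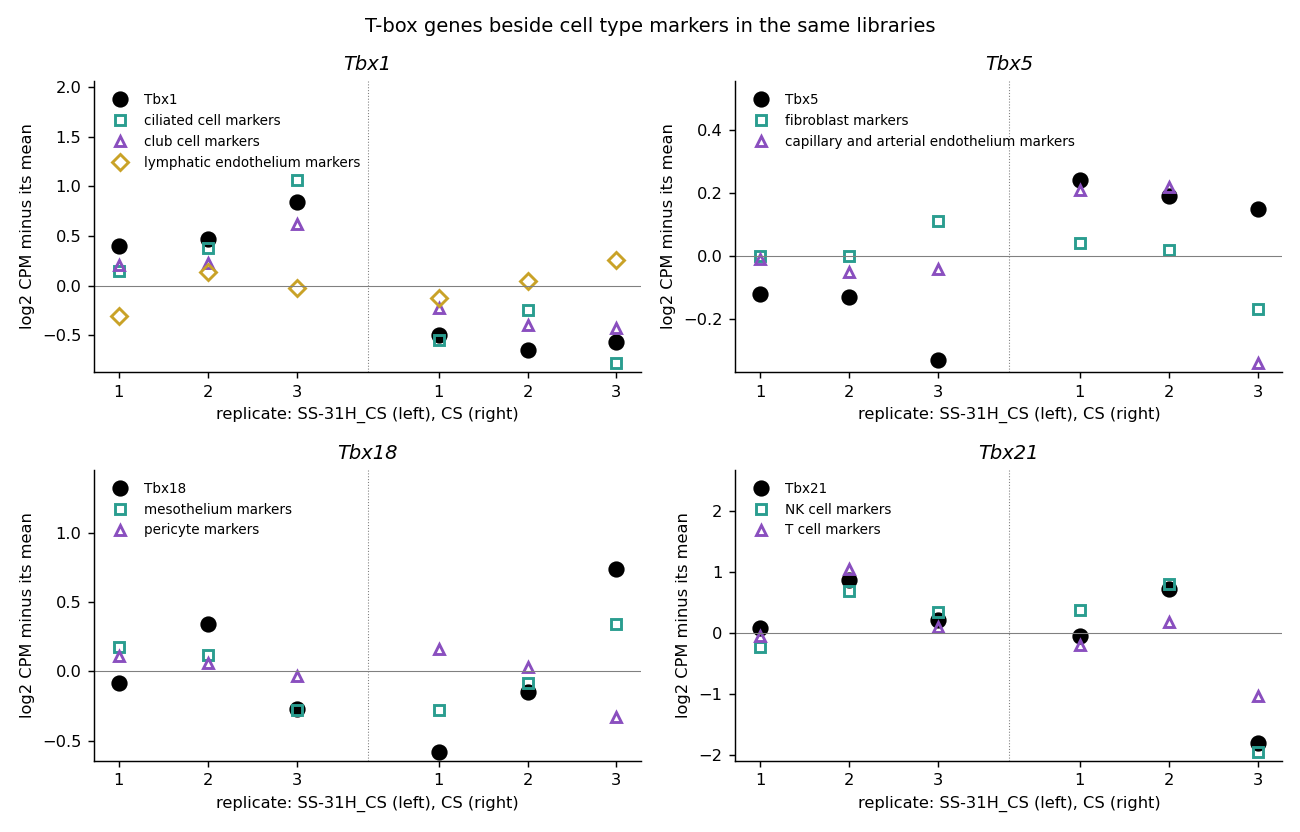
Log2 CPM of 4 T-box genes minus each gene's own mean over the 6 libraries (black), beside the mean of the same quantity over the tested markers of named cell types (coloured), with SS-31H_CS libraries on the left and CS libraries on the right of each panel. Tbx1 follows the ciliated and club cell markers in sign in all 6 libraries. Tbx21 and the NK and T cell markers are lowest in CS replicate 3, at -1.95 for the NK cell list.

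Genes of the Tbx1 pathway in mouse development, most of them placed under Tbx1 and some, such as Foxa2, upstream of it, had no called member. Of 14 listed, 11 were tested, 6 with a positive and 5 with a negative log2 fold change (median 0.19). Wnt5a, a secreted signal, averaged 20.7 ± 2.99 CPM in SS-31H_CS lungs and 14.8 ± 1.53 CPM in CS lungs (log2 fold change 0.48, adjusted p 0.183). Foxa2, an airway epithelial regulator, averaged 56.5 ± 9.09 CPM in SS-31H_CS lungs and 43.3 ± 0.0908 CPM in CS lungs (log2 fold change 0.38, adjusted p 0.192). Flt4, the lymphatic receptor for VEGF-C, averaged 61.2 ± 1.14 CPM in SS-31H_CS lungs and 83.4 ± 16.5 CPM in CS lungs (log2 fold change -0.45, adjusted p 0.192).

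Tbx4 and Tbx5, the activators of the lung mesenchyme, both had lower means in SS-31H_CS lungs, and neither was called. Tbx5 (ENSMUSG00000018263), on the plus strand of chromosome 5 from 119832668 to 119885219, had 37.7, 37.5 and 32.5 CPM in SS-31H_CS lungs, against 48.5, 46.8 and 45.4 CPM in CS lungs. Every SS-31H_CS library was below every CS library. The log2 fold change was -0.39 (SE 0.10), with an unadjusted p of 0.00555 and an adjusted p of 0.137. Tbx1 and Tbx5 had an unadjusted p below 0.05, as did 18.2% of all genes tested. Over the other settings tried, the log2 fold change of Tbx5 ran from -0.43 to -0.30.

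Tbx4 (ENSMUSG00000000094) lies on the plus strand of chromosome 11 from 85886422 to 85916097. It had 127, 106 and 91.9 CPM in SS-31H_CS lungs, against 135, 146 and 120 CPM in CS lungs. The groups overlap, since SS-31H_CS replicate 1 was above CS replicate 3. Its log2 fold change of -0.30 (SE 0.14) came with an adjusted p of 0.308. Tbx4 and Tbx5 were the pair of members most alike over the 6 libraries, with a root mean square difference of 0.115 in centred log2 CPM. Tbx3 and Tbx5 followed at 0.131 and Tbx3 and Tbx4 at 0.194, while Tbx18 and Tbx21 were the least alike at 1.159. The difference is not scaled to the spread of each gene, so genes that vary little come out alike more easily. The SD of centred log2 CPM was 0.189 for Tbx3, 0.208 for Tbx5 and 0.220 for Tbx4, against 0.427 for Tbx18 and 0.876 for Tbx21.

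Both were also set against cell type markers. The 12 capillary and arterial endothelium markers had a median log2 fold change of -0.27, 8 of 12 negative and 0 called, with summed levels of 3030 to 3640 CPM in SS-31H_CS lungs and 4260 to 4530 CPM in CS lungs. The 12 fibroblast markers had a median of -0.01, 6 positive and 6 negative and 0 called, with summed levels of 4700 to 5220 CPM in SS-31H_CS lungs and 3750 to 4920 CPM in CS lungs. Inmt made up 42.4% to 49.4% of that sum in SS-31H_CS libraries and 26.7% to 39.6% in CS libraries, and the other 11 markers summed to 2640 to 2830 CPM in SS-31H_CS lungs and 2750 to 2970 CPM in CS lungs. No marker of either list was at 0 in all libraries. Per 1000 CPM of endothelial markers Tbx5 stood at 10.4, 11.2 and 10.7 CPM in SS-31H_CS libraries and at 10.9, 10.3 and 10.7 CPM in CS libraries, so that the groups overlap. Per 1000 CPM of fibroblast markers it stood at 7.22, 7.98 and 6.30 CPM in SS-31H_CS libraries and at 9.96, 9.52 and 12.1 CPM in CS libraries, with no overlap. Tbx4 showed the same arrangement, with overlap per endothelial marker (30.4 to 34.8 CPM in SS-31H_CS libraries and 28.2 to 32.1 CPM in CS libraries) and none per fibroblast marker (17.8 to 24.3 CPM in SS-31H_CS libraries and 27.7 to 32 CPM in CS libraries). With Inmt left out of the fibroblast sum, Tbx4 stood at 48.0, 39.1 and 32.5 CPM in SS-31H_CS libraries and at 45.8, 48.9 and 43.7 CPM in CS libraries, which overlap, while Tbx5 stood at 11.5 to 14.3 CPM in SS-31H_CS libraries and at 15.7 to 16.5 CPM in CS libraries, which do not. Among fibroblast markers Pdgfra, the receptor of alveolar fibroblasts, averaged 278 ± 19.9 CPM in SS-31H_CS lungs and 472 ± 14.9 CPM in CS lungs (log2 fold change -0.76, adjusted p 0.0554), whereas Dcn, which encodes the matrix proteoglycan decorin, averaged 190 ± 47.2 CPM in SS-31H_CS lungs and 124 ± 23.4 CPM in CS lungs (log2 fold change 0.61, adjusted p 0.199). On the same endothelial sum Tbx2 did not overlap, at 127 to 135 CPM per 1000 CPM (SS-31H_CS) and 72 to 103 CPM (CS). Tbx3 overlapped on it, at 35.3 to 47.6 CPM (SS-31H_CS) and 34.4 to 38.9 CPM (CS). Both Tbx2 and Tbx3 overlapped on the fibroblast sum. The part of these cell types in the levels of Tbx2, Tbx3, Tbx4 and Tbx5 was not tested.

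The genes whose pattern was closest to that of Tbx5 were Prdm2 at 0.031, Asap2 at 0.041 and the endothelial tight junction gene Cldn5 at 0.044, itself one of the endothelial markers. Those closest to Tbx4 were BC034090, Gprc6a and Zfp646, at 0.028 to 0.041.

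The signals that Tbx4 and Tbx5 control in the lung bud, with the partners of those signals, had 0 of 12 genes called. Their log2 fold changes were positive for 10 of 12 (median 0.34), the opposite sign to Tbx4 and Tbx5. Fgf10, the mesenchymal growth factor that drives branching, averaged 13.6 ± 1.51 CPM in SS-31H_CS lungs and 11.9 ± 2.57 CPM in CS lungs (log2 fold change 0.19, adjusted p 0.629). Bmp4 had 76.7, 65.9 and 71.0 CPM in SS-31H_CS lungs, against 57.2, 49.9 and 45.3 CPM in CS lungs. Shh, the epithelial hedgehog ligand, had 13.9, 21.5 and 26.5 CPM in SS-31H_CS lungs, against 11, 9.91 and 12.5 CPM in CS lungs. For both genes the SS-31H_CS libraries were all above the CS libraries, and this held for 5 of the 12 genes, where 26.1% of all genes tested did not overlap in either direction. Their log2 fold changes were 0.49 (SE 0.12, adjusted p 0.122) for Bmp4 and 0.88 (SE 0.24, adjusted p 0.138) for Shh.

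Tbx2 and Tbx3, the repressors, were not called. Tbx2 (ENSMUSG00000000093), on the plus strand of chromosome 11 from 85832551 to 85841948, had 489, 446 and 384 CPM in SS-31H_CS lungs, against 428, 465 and 307 CPM in CS lungs. The groups overlap, and replicate 3 was the lowest library of each. For Tbx2 the log2 fold change was 0.14 (SE 0.18), with an adjusted p of 0.705, and was -0.03 without CS replicate 3. Tbx3 (ENSMUSG00000018604), on the plus strand of chromosome 5 from 119670669 to 119684724, had 128, 160 and 118 CPM in SS-31H_CS lungs, against 153, 164 and 166 CPM in CS lungs. SS-31H_CS replicate 2 fell within the CS range. For Tbx3 the log2 fold change was -0.25 (SE 0.13), with an adjusted p of 0.365.

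**Figure D4:**
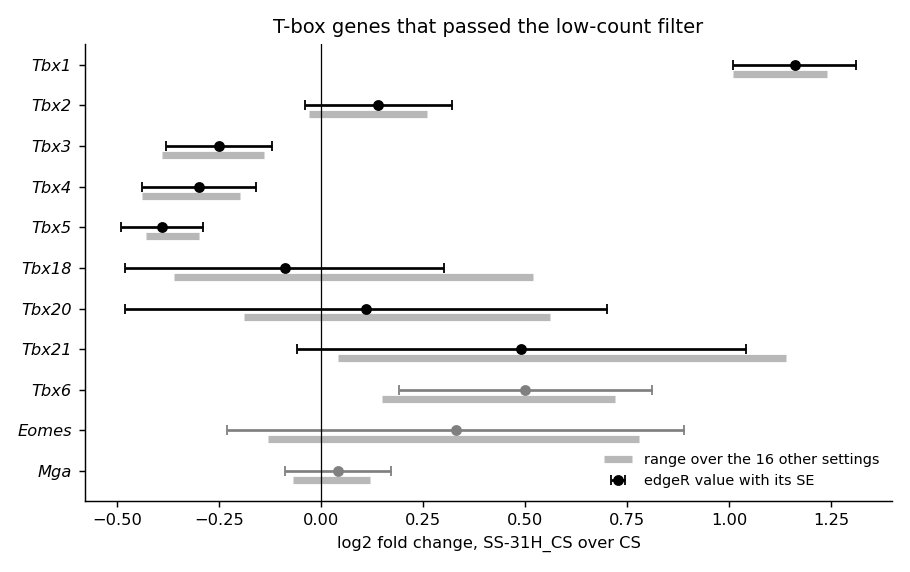
Log2 fold change, SS-31H_CS over CS, of the 11 T-box genes that passed the low-count filter, as the edgeR value with its SE (points and bars) and as the range over the other settings tried (grey bands). Tbx1 stands at 1.16, with a band from 1.01 to 1.24. The bands of Tbx2, Tbx18, Tbx20, Eomes and Mga include 0.

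Tbx2 and Tbx4 sit 44.5 kb apart on one strand, and Tbx3 and Tbx5 148 kb apart on one strand, as neighbouring pairs known from other vertebrates too. The FPKM ratio of Tbx2 to Tbx4 was 3.62, 3.95 and 3.92 in SS-31H_CS libraries 1 to 3, and 2.97, 3 and 2.40 in CS libraries 1 to 3. The groups do not overlap on this ratio, which was read after the values were seen and was not tested. The ratio of Tbx3 to Tbx5 was 2.41, 3.01 and 2.56 in SS-31H_CS libraries, and 2.23, 2.47 and 2.58 in CS libraries, with overlap.

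The genes that Tbx2 and Tbx3 repress had 6 of 7 members tested and 0 called (median log2 fold change 0.22). Cdkn1a, which encodes the cell cycle inhibitor p21, had 44.2, 44.2 and 44.0 CPM in SS-31H_CS lungs, against 101, 134 and 436 CPM in CS lungs. All SS-31H_CS libraries were below all CS libraries, and CS replicate 3 was far above the other two. The log2 fold change was -2.34 (SE 0.50, adjusted p 0.0994), and without CS replicate 3 it was -1.41 with an adjusted p of 0.0241. Cdkn1b, which encodes the inhibitor p27, averaged 105 ± 18.5 CPM in SS-31H_CS lungs and 76.9 ± 16.4 CPM in CS lungs (log2 fold change 0.45, adjusted p 0.259).

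Genes also lie close to Tbx2 and Tbx3. 2610027K06Rik lies 328 bases from Tbx2 on the opposite strand and shares no exon base with it. It averaged 13.0 ± 1.66 CPM in SS-31H_CS lungs and 9.58 ± 1.46 CPM in CS lungs (log2 fold change 0.44, adjusted p 0.263). Tbx3os1, antisense to Tbx3, shares 115 exon bases with it, 1.74% of the Tbx3 exons, and averaged 14.1 ± 1.6 CPM in SS-31H_CS lungs and 14.8 ± 0.522 CPM in CS lungs (log2 fold change -0.07). The strand setting of the counting is not given in the sources used here, so reads from those shared bases cannot be told apart. Bcas3, 6493 bases from Tbx2, had a log2 fold change of 0.02, and Gm43050, 748 bases from Tbx5, one of 0.32, and neither was called (adjusted p 0.965 and 0.463). The other annotated neighbours within 10 kb of these 8 genes, apart from 4930588K23Rik, had at most 4 counts in any library and were not tested. The genes closest in pattern were Samd14, Pced1a and Khnyn for Tbx2, at 0.031 to 0.038, and Rbms1, Sos2 and the immediate-early gene Jun for Tbx3, at 0.035 to 0.043.

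Tbx18 and Tbx20 were scarce. Tbx18 (ENSMUSG00000032419), on the minus strand of chromosome 9 from 87702800 to 87731260, had 2.31, 3.12 and 2.00 CPM in SS-31H_CS lungs, against 1.59, 2.18 and 4.14 CPM in CS lungs. The CS group held both the lowest and the highest library. The difference on the log2 scale was -0.09 (SE 0.39), with an adjusted p of 0.921, and 0.38 without CS replicate 3. D030062O11Rik overlaps 970 exon bases of Tbx18 on the opposite strand, 20.6% of them, and had 0 to 4 counts in any library. The 10 mesothelium markers, of which 0 were called (5 positive, median 0.12), summed to 874 to 1200 CPM in SS-31H_CS lungs and to 918, 1010 and 2030 CPM in CS libraries 1 to 3. CS replicate 3 was the highest library for Tbx18 and for this sum, of which the keratin Krt19 made up 55.1% in that library and 21.2% to 33.4% in the other 5. Without Krt19 the markers summed to 637 to 931 CPM in SS-31H_CS lungs and to 611, 725 and 912 CPM in CS libraries 1 to 3, and CS replicate 3 was not the highest. Per 1000 CPM of all 10 markers Tbx18 stood at 1.92 to 2.70 CPM in SS-31H_CS libraries and at 1.74 to 2.16 CPM in CS libraries, and without Krt19 at 2.48 to 3.43 CPM in SS-31H_CS libraries and at 2.61 to 4.54 CPM in CS libraries. The 10 pericyte markers had 0 called (3 positive, median -0.09), with summed levels of 522 to 675 CPM in SS-31H_CS lungs and 480 to 741 CPM in CS lungs, and were lowest in CS replicate 3. No marker of either list was at 0 in all libraries. The part of these cells in the level of Tbx18 was not tested. Hacd1 was closest to Tbx18 in pattern, at 0.083, before Igkv3-10 and Adamts6.

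Tbx20 (ENSMUSG00000031965), on the minus strand of chromosome 9 from 24718138 to 24774303, had 31, 30 and 7 counts in the SS-31H_CS libraries, against 33, 20 and 11 counts in the CS libraries. These were 1.83, 1.83 and 0.412 CPM in SS-31H_CS lungs, against 1.95, 1.15 and 0.679 CPM in CS lungs. Replicate 3 was the lowest library of each group, and the groups overlap. The difference on the log2 scale was 0.11 (SE 0.59) for Tbx20, with an adjusted p of 0.939. Cardiac muscle markers, from the sleeves of heart muscle around the pulmonary veins, had 13 of 14 tested, 11 positive and 0 called (median 0.44). Their sum was 1040, 475 and 420 CPM in SS-31H_CS libraries 1 to 3, and 800, 293 and 437 CPM in CS libraries 1 to 3, and no marker was at 0 in all libraries. Tbx20 stood at 0.980 to 3.86 CPM per 1000 CPM of them in SS-31H_CS libraries and at 1.55 to 3.92 CPM in CS libraries. Their part in the level of Tbx20 was not tested. Of 10 cardiac partners of Tbx5 and Tbx20, 5 were tested and 0 called (median 0.30), and Hand1 and Irx4 were at 0 counts in all libraries. Mef2c averaged 40.7 ± 5.54 CPM in SS-31H_CS lungs and 27.8 ± 8.35 CPM in CS lungs (log2 fold change 0.55, adjusted p 0.249). Casz1 averaged 107 ± 16.3 CPM in SS-31H_CS lungs and 130 ± 10.7 CPM in CS lungs (log2 fold change -0.28, adjusted p 0.330). The genes closest to Tbx20 in pattern were Ighv1-81, Aqp9 and Hist3h2ba, at 0.232 to 0.261.

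Tbx21 (ENSMUSG00000001444), on the minus strand of chromosome 11 from 97098071 to 97115331, had 63, 108 and 70 counts in the SS-31H_CS libraries, against 58, 103 and 15 counts in the CS libraries. These were 3.72, 6.60 and 4.12 CPM in SS-31H_CS lungs, against 3.42, 5.90 and 0.926 CPM in CS lungs. The groups overlap, replicate 2 was the highest of each, and CS replicate 3 was far below the rest. The log2 fold change was 0.49 (SE 0.55, adjusted p 0.663), and 0.04 without CS replicate 3. The 10 NK cell markers followed the same order of libraries in the CS group, with a sum of 64.2, 134 and 98.3 CPM in SS-31H_CS libraries 1 to 3, and 109, 142 and 19.8 CPM in CS libraries 1 to 3 (6 of 10 positive, 0 called, median 0.06). The 10 T cell markers summed to 114, 240 and 133 CPM in SS-31H_CS libraries, and to 105, 140 and 57.0 CPM in CS libraries (10 of 10 positive, 0 called, median 0.71). Per 1000 CPM of NK cell markers Tbx21 stood at 41.9 to 58.0 CPM in SS-31H_CS libraries and at 31.5 to 46.7 CPM in CS libraries, with overlap. No marker of either list was at 0 in all libraries, and the part of these cells in the level of Tbx21 was not tested. Of 10 thymus markers, 3 were tested, Themis, Cd1d1 and Ccl25, all with positive log2 fold changes (median 0.28) and 0 called. Themis averaged 3.9 ± 1.71 CPM in SS-31H_CS lungs and 1.94 ± 0.666 CPM in CS lungs (edgeR adjusted p 0.249). The groups did not overlap for Themis and overlapped for Cd1d1 and Ccl25. Foxn1, Rag1 and Rag2 were at 0 counts in all libraries, which is not read as absence of thymus tissue. Gimap7, the chemokine Ccl5 and the lymphoid factor Ikzf3 were closest to Tbx21 in pattern, at 0.140 to 0.146.

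In the type 1 lymphocyte program under Tbx21, 16 of 18 genes were tested, 8 positive and 8 negative (median 0.08). Il18r1, a chain of the interleukin-18 receptor, was the 1 gene called, where 0.153% of all genes tested were. It had 75.3, 85.7 and 73.4 CPM in SS-31H_CS lungs, against 160, 137 and 186 CPM in CS lungs, with all SS-31H_CS libraries below all CS libraries. It fell by 1.04 on the log2 scale in SS-31H_CS lungs (log2 fold change -1.04, SE 0.14, adjusted p 0.0467), and was not called when any 1 library was left out (adjusted p 0.0675 to 0.180), with library size alone (0.0556) or in the limma fits (0.0605 to 0.0839). Il18r1 was highest in CS replicate 3, the library lowest in Tbx21 (0.926 CPM), in NK cell markers (19.8 CPM summed) and in T cell markers (57.0 CPM summed). Its level thus did not follow Tbx21 over the libraries, and which cells it came from was not tested. Il18rap, the other chain, averaged 24.1 ± 7.65 CPM in SS-31H_CS lungs and 39.9 ± 3.15 CPM in CS lungs (log2 fold change -0.73, adjusted p 0.172). The regulators of other T helper fates had 9 of 12 genes tested, 8 of them positive and 0 called (median 0.33). Stat3 averaged 276 ± 20.2 CPM in SS-31H_CS lungs and 379 ± 48.0 CPM in CS lungs (log2 fold change -0.46, adjusted p 0.149). Il4 averaged 3.34 ± 1.17 CPM in SS-31H_CS lungs and 1.64 ± 0.206 CPM in CS lungs (log2 fold change 1.02, adjusted p 0.179).

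**Figure D5:**
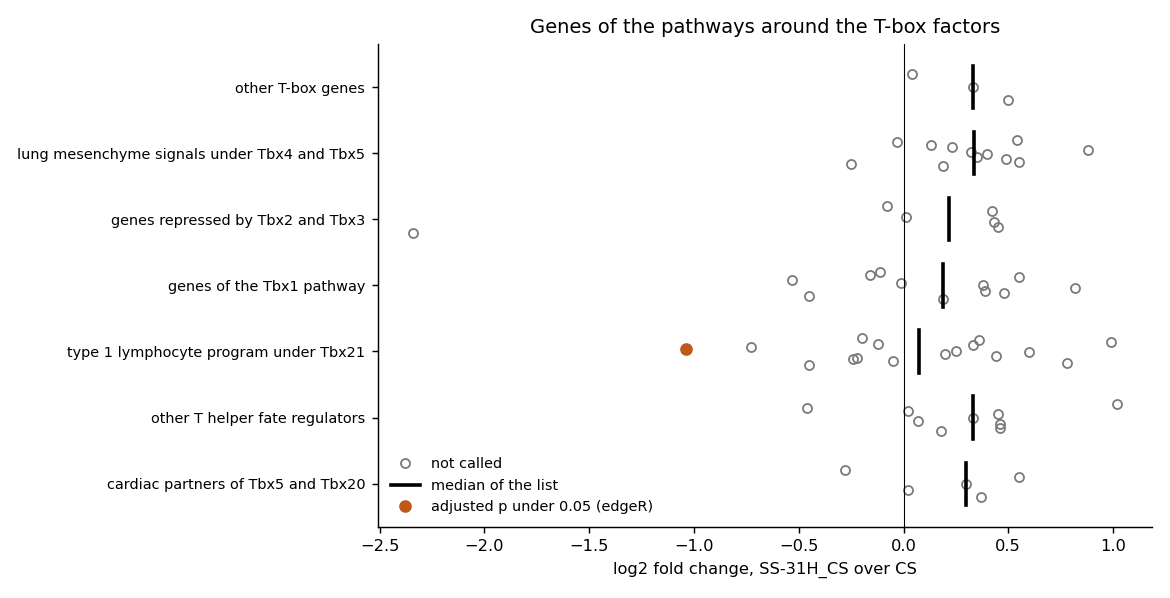
Log2 fold change, SS-31H_CS over CS, of the tested genes of 7 lists around the T-box factors, 1 point per gene, with the median of each list as a black bar. The filled point, Il18r1 at -1.04, is the 1 gene with an adjusted p under 0.05. The open point farthest to the left is Cdkn1a at -2.34.

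Of the 9 other T-box genes, 3 passed the filter and 0 were called. Mga, a large factor with a T-box and a second DNA-binding domain, averaged 48.5 ± 3.88 CPM in SS-31H_CS lungs and 47.3 ± 6.11 CPM in CS lungs (log2 fold change 0.04, adjusted p 0.901). Tbx6, known from embryonic mesoderm, averaged 7.54 ± 1.13 CPM in SS-31H_CS lungs and 5.33 ± 2.03 CPM in CS lungs (log2 fold change 0.50, adjusted p 0.425). Eomes, the relative of Tbx21 in NK cells, had 2.84, 5.13 and 3.59 CPM in SS-31H_CS lungs, against 3.72, 4.70 and 0.741 CPM in CS lungs (log2 fold change 0.33, adjusted p 0.779). It was lowest in CS replicate 3, as Tbx21 was, and without that library its log2 fold change was -0.13. Tbx10 was at 0 counts in all libraries, and T, Tbx15, Tbx19, Tbx22 and Tbr1 had 0 to 5 counts in any library.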

How the data were processed

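Total lung RNA was sequenced from 3 SS-31H_CS and 3 CS libraries, grouped by their labels. Per the submitters' processing notes, cutadapt 1.9.1, HISAT2 2.0.1, HTSeq 0.6.1 and GRCm38 were used; the annotation release, strand setting and filters are not given in the sources used here. The deposited table of counts per gene and the FPKM values made by the authors were used as they stood. Symbols came from GENCODE M21 (55480 of 55573 IDs matched), and promoters from RefSeq GRCm38.p6.

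Counts were tested over all 6 libraries with edgeR 4.0.16 in R 4.3.3 (quasi-likelihood test, two-sided, TMM factors), on the 16965 genes passing filterByExpr (minimum count 10, minimum total 15), with Benjamini-Hochberg adjustment over all of them and a threshold of 0.05. CPM used TMM-scaled library sizes and log2 CPM a prior count of 2. SD is over the libraries of a group. SE is the one implied by the log2 fold change and the test statistic of the edgeR fit. The fit was also run on counts simulated from its own estimates of the spread, which does not bear on how stable the calls given here are.

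The T-box genes and gene lists were chosen with earlier results of these data known. The text names the 8 T-box genes and the other 9, the 2 genes with the lowest p of each pathway list and every called member, the 3 tested genes (mean CPM of at least 1) nearest each T-box gene in centred log2 CPM, annotated genes within 10 kb, and the nearest tested genes on either side of Tbx1 (its other neighbours are not reported here); Fgf10 and a few markers were named after their values were seen. Alternatives were other size factors and filters, DESeq2 1.42.0, limma 3.58.1 (voom, and trend on log2(FPKM + 1) and log2(FPKM + 0.1) with a mean FPKM of at least 0.5), the replicate number as a block, each library left out, and, chosen after seeing the data, replicate 3 of both groups left out and the most abundant marker left out of a marker sum.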

Additional observations from a re-analysis of the deposited data

How the results depend on the processing

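The count of 26 called genes was 12 with library size alone, 648 without a low-count filter, 939 with DESeq2, 6 with limma voom, 6 on log2(FPKM + 1), 5 on log2(FPKM + 0.1) and 1 to 15 with 1 library left out, the highest without CS replicate 3. Deviations of same-numbered libraries from their group means correlated at 0.007, 0.036 and -0.057, and not every library correlated best with its own number. Deviations within a group of 3 are tied to each other, so these values cannot settle whether the libraries are paired. With the replicate block 0 genes and 0 T-box genes were called. The T-box count of 1 was also 0 with limma voom, in both FPKM fits and with any 1 library left out (lowest 0, highest 0), and was 1 with replicate 3 of both groups left out. The adjusted p of Tbx1 ran from 4.15e-07 (DESeq2) to 0.167 (without CS replicate 1); it was 0.0605 with voom, 0.0822 and 0.0725 in the FPKM fits and 0.0454 with replicate 3 of both groups left out. The sign turned for Tbx2 (-0.03 to 0.26 with 1 library left out), Tbx18 (voom 0.01, FPKM fits 0.01 and 0.05, replicate 3 of both groups out 0.52, 1 library out -0.36 to 0.38), Tbx20 (voom -0.05, 1 library out -0.19 to 0.56), Eomes (replicate 3 of both groups out -0.08, 1 library out -0.13 to 0.78), Mga (-0.07 and -0.06 to 0.12), Bcas3 (-0.22 and -0.16 to 0.13) and Tbx3os1 (0.01 and -0.15 to 0.01), none of them called; the cause was not tested. Tbx21 ran from 0.04 without CS replicate 3 to 1.14 without CS replicate 2. Shh was called without a low-count filter (adjusted p 0.0426) and with DESeq2 (0.022), as were Cdkn1a (0.00311 and 0.0106), Gm47139 (0.0242 and 0.00275) and Vwa1 (0.0252 and 0.00233), and with DESeq2 alone Bmp4 (0.0409), Il18rap (0.0441) and Stat3 (0.0331). Ccdc151 and Il18r1 lost their call with library size alone (0.0552 and 0.0556), in the limma fits, with the replicate block (0.15 and 0.162), with any 1 library left out and with replicate 3 of both groups left out (0.0595 and 0.0554). Tbx20 has no result in the FPKM fits, its mean FPKM being below the minimum of 0.5. Tbx20 had 7 to 33 counts per library. Groups of 3 were not searched for outlying libraries.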
